A study of Mus musculus with 9 samples.

Results

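Fatty acid desaturases and elongases are the enzymes that put double bonds into fatty acids and lengthen them. Their RNA was followed in mouse epididymal adipose tissue during weight loss, through 9 genes picked by name from the 56748 genes of the count table: the desaturases *Scd1*, *Scd2*, *Fads1*, *Fads2* and *Fads3*, and the elongases *Elovl1*, *Elovl3*, *Elovl5* and *Elovl6*. The rule uses gene names alone, and all 9 genes were found. The members, and the lists used below, were chosen with earlier results of these data known. Their counts of calls beside the shares of all genes are therefore a description. Male wild-type C57BL/6J mice received a high-fat diet (HFD) from 8 weeks of age for 8 weeks (Pre). The WL1 and WL2 mice had the same 8 weeks of HFD and then 1 or 2 weeks of standard diet. Each phase has 3 libraries of whole adipose tissue. The labels do not say whether these came from separate mice. The p-values therefore set differences against the spread between these libraries, which may not be that between mice. The WL1 and WL2 mice were older than the Pre mice by the weeks on standard diet, and no group kept on HFD to the same age is among these libraries. Diet, weight loss and age therefore cannot be told apart.

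Stearoyl-CoA desaturases place the first double bond into saturated fatty acids and so make oleate and palmitoleate, the main monounsaturated fats of stored triglyceride. *Fads2* and *Fads1* encode the delta-6 and delta-5 desaturases, which, together with *Elovl5*, turn dietary essential fatty acids into arachidonate and other polyunsaturated fatty acids. Elongases carry out the first, condensing step of each round of chain lengthening, and *Elovl6* takes palmitate to stearate. In adipocytes and liver, several of these genes are targets of the lipogenic transcription factors SREBP-1c and ChREBP and of the liver X receptors.

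The 4 promoters below show the stretch of DNA just before the start site for members that were lower after weight loss (*Elovl6* and *Fads3*) and for members that did not pass the test (*Fads2* and *Elovl5*). They come from RefSeq on GRCm38.p6 and run 5′ to 3′ over 250 bases before the start. Capitals mark CCAAT (an NF-Y box), GGGCGG (a GC box) or CACGTG (an E-box), searched on both strands.
Elovl6 promoter, chr3:129532136-129532385, + strand: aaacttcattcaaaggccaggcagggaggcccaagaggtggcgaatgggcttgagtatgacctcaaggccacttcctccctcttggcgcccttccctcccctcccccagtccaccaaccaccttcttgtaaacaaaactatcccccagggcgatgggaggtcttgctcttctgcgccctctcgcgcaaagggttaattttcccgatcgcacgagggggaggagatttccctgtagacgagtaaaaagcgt
Fads3 promoter, chr19:10041298-10041547, + strand: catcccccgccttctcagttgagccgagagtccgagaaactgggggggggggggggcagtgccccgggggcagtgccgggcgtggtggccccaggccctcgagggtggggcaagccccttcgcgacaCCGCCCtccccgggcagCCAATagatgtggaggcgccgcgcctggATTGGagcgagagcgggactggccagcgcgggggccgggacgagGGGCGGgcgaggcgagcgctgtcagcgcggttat
Fads2 promoter, chr19:10101504-10101753, - strand: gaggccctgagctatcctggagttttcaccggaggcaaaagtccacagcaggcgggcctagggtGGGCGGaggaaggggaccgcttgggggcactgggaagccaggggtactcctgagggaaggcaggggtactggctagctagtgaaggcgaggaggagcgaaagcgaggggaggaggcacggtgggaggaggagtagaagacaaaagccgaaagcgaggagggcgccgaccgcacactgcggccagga
Elovl5 promoter, chr9:77917115-77917364, + strand: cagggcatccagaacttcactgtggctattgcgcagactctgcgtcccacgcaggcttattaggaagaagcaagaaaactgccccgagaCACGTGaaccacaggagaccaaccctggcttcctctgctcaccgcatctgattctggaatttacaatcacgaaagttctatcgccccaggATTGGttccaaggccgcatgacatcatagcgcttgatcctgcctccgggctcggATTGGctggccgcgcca
The *Elovl6* window held none of the motifs searched. The *Fads3* window held 2 CCAAT and 2 GGGCGG motifs, the *Fads2* window 1 GGGCGG, and the *Elovl5* window 2 CCAAT and 1 CACGTG. Among 32851 promoters of the same length, 33.8% held CCAAT, 32.7% GGGCGG and 6.02% CACGTG. The SREBP site TCACNCCAC (1.05% of promoters) and the liver X receptor repeat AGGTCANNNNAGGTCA (0.0152%) were in none of the 6 windows found for 5 of the 9 members, the other 2 windows being those of *Elovl1*. No promoter was matched for *Scd1*, *Scd2*, *Fads1* or *Elovl3*. A match is a description of these letters and says nothing of binding.

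The members lie on few chromosomes. In the coordinates of the authors' table, whose build could not be matched to the annotation at hand, *Fads3* (chr19:10018933-10037474, + strand), *Fads2* (chr19:10040129-10079110, - strand) and *Fads1* (chr19:10160252-10174241, + strand) form a cluster. The 3′ ends of *Fads3* and *Fads2* face each other across 2654 bases. *Scd2* (chr19:44282113-44295303, + strand) and *Scd1* (chr19:44382894-44396318, - strand) lie 87590 bases apart, with *Scd4* between them, and *Elovl3* (chr19:46120336-46124133, + strand) is on the same chromosome. *Elovl1* (chr4:118285290-118290150), *Elovl5* (chr9:77824646-77891801) and *Elovl6* (chr3:129326004-129432144), each on the + strand, stand alone.

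Between 16434450 and 22729072 reads were counted per library, of which the 9 members took 0.782% to 2.38%. Mitochondrial genes took 1.86% to 3.57% and were highest at Pre. Summed adipocyte markers (10 genes, among them *Adipoq*, *Plin1* and *Fabp4*) reached 32563 to 41015 CPM (reads scaled to the same library total) at Pre, 22531 to 29857 at WL1 and 33717 to 36526 at WL2, so the libraries hold abundant adipocyte RNA. Summed macrophage markers (10 genes) ranged from 1783 to 3020 CPM at Pre, 3567 to 6998 at WL1 and 1909 to 3900 at WL2. The brown adipocyte gene *Ucp1* had at most 5 reads in any library. Genes of epididymis and testis summed to at most 1.89 CPM. The libraries Pre replicate 3 and WL1 replicate 1 had the highest sums of 7 liver markers (93.7 and 82.0 CPM, against 3.86 to 57.2 in the other 4 libraries of those phases and 3.67 to 7.01 at WL2), and Pre replicate 2 had 202 CPM of lymphocyte markers, against 5.19 to 18.5 in the other libraries. In whole tissue, fewer cells of a type and less RNA per cell cannot be told apart.

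The levels of the 9 members spanned several orders of magnitude. On the FPKM scale, which corrects for gene length and allows genes to be compared, *Scd1* averaged 4223 ± 233 (SD, n = 3) at Pre and had the highest read count of all genes in that phase. *Fads3* followed at 282 ± 21.0 and *Scd2* at 136 ± 32.4. *Elovl5* (39.6 ± 3.47) and *Elovl1* (27.9 ± 3.91) came next and did not overlap between libraries, and *Fads1* (13.6 ± 2.49) stood above *Fads2* (8.62 ± 0.796). *Elovl6* averaged 2.75 ± 0.770 FPKM, and *Elovl3* was lowest at 0.260 ± 0.0986. The order of the 9 mean levels differed between phases through *Scd2* alone, which ranked 3 at Pre, 5 at WL1 (27.8 ± 2.20 FPKM, below *Elovl1* at 28.8 ± 2.68, with overlapping libraries) and 6 at WL2 (13.9 ± 2.21 FPKM, below *Fads1* at 14.6 ± 1.87, also overlapping).

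**Figure D1:**
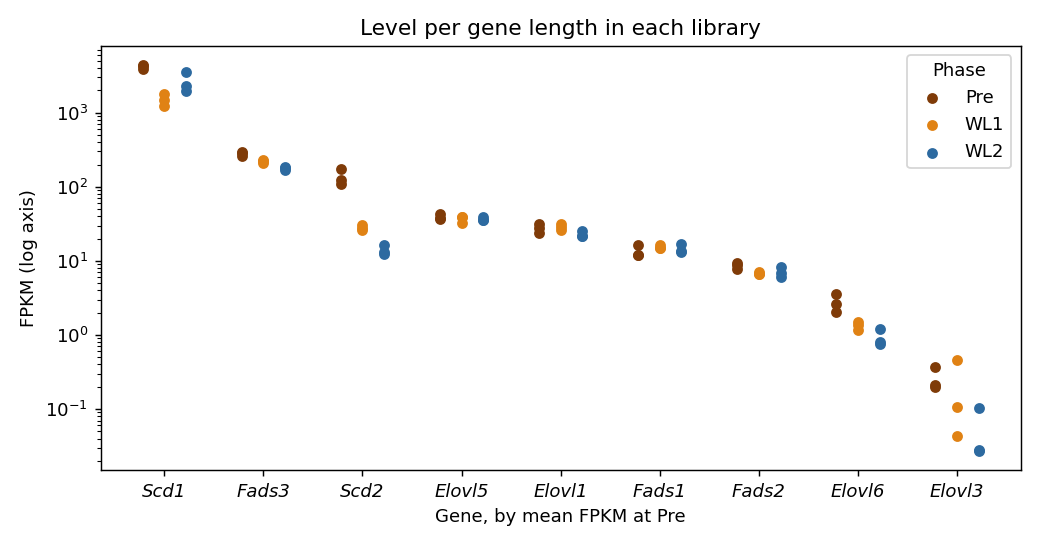
Level of each member in FPKM (log axis) in the 9 libraries, with 3 points per phase and genes ordered by their mean at Pre. *Scd1* lies above all other members in every library, and *Scd2* moves from rank 3 at Pre to rank 6 at WL2.

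By the quasi-likelihood test of edgeR, with p-values adjusted by Benjamini-Hochberg over 18510 genes and a threshold of 0.05, *Scd1*, *Scd2* and *Elovl6* were lower at WL1 than at Pre, 3 of 9 members, against 4.69% of all genes called lower and 7.29% called in either direction. At WL2 against Pre, *Scd2*, *Fads3* and *Elovl6* were lower, again 3 of 9, against 6.66% of all genes called lower and 10.0% in either direction. Between WL2 and WL1 *Scd2* alone passed, 1 of 9, against 2.37% of all genes called lower and 3.68% in either direction. With library totals in place of TMM, the balance of all genes called turned, with 642 lower and 1003 higher at WL1 against Pre (868 and 482 with TMM) and 835 lower and 1495 higher at WL2 against Pre (1233 and 620 with TMM), while the members called were the same. Higher calls by edgeR, which made up 2.60%, 3.35% and 1.31% of all genes, included 0 members. At an unadjusted p under 0.05, 5 members passed in each comparison, against 24.3%, 26.0% and 21.4% of all genes, each lower at the later phase except *Scd1*, which was higher at WL2 than at WL1. DESeq2 called 4, 4 and 3 members, against 14.4%, 16.0% and 11.9% of the genes to which it gave an adjusted p, the last with *Scd1* higher at WL2. The median log2 fold change of the members was -0.34, -0.68 and -0.34 in the 3 comparisons, against 0.021, 0.0084 and -0.0014 over all genes tested. The libraries of the phases did not overlap for 5 members at WL1 against Pre, 5 at WL2 against Pre and 4 at WL2 against WL1, while this held for 28.7%, 30.9% and 30.3% of all genes. The comparisons share libraries (Pre in both comparisons with Pre, WL1 in both that involve WL1), so their values are not independent of each other.

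**Figure D2:**
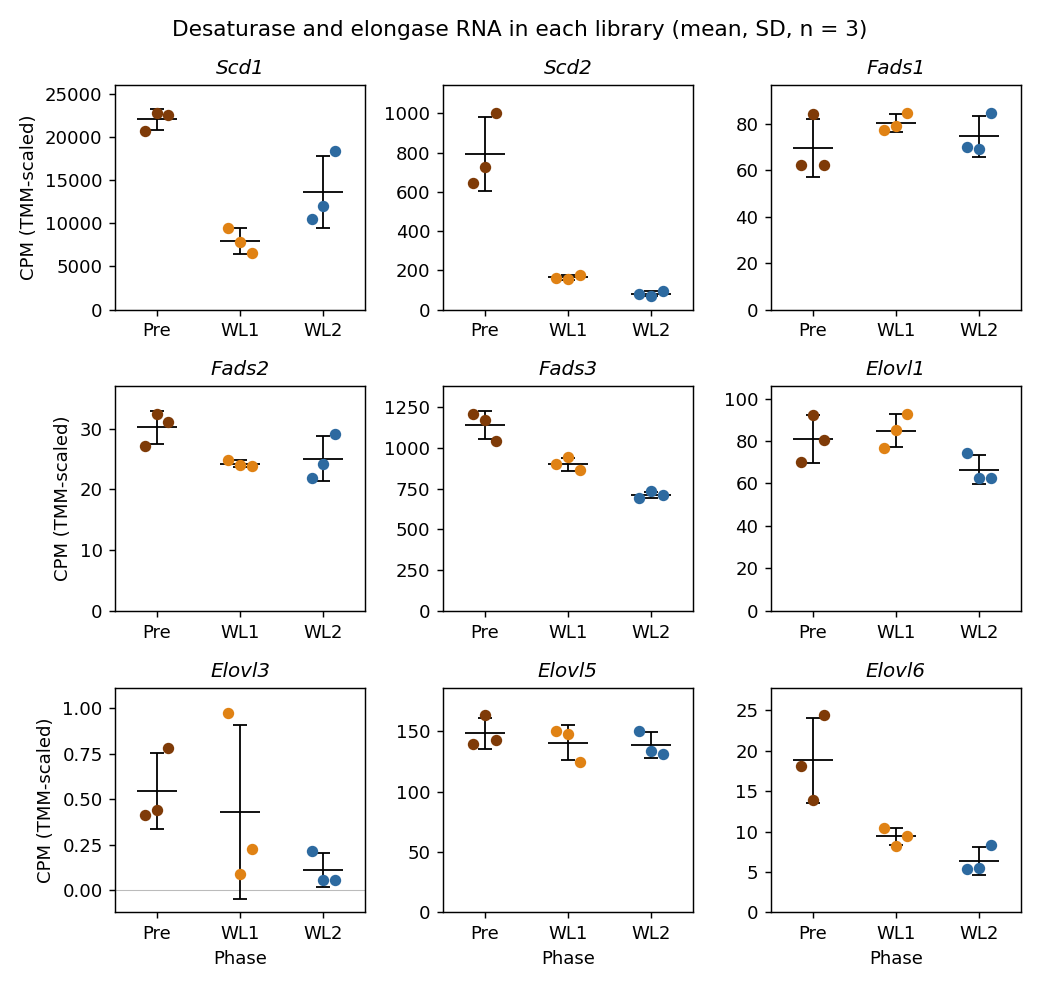
TMM-scaled CPM of each member (linear axis) by phase. Points are the 3 libraries, the horizontal bar is their mean and the whiskers their SD. *Scd1* falls at WL1 and lies between the other phases at WL2. *Scd2*, *Fads3*, *Elovl3*, *Elovl5* and *Elovl6* have a lower mean at each later phase, of which *Elovl3* and *Elovl5* passed in no comparison with edgeR. *Fads1* and *Elovl5* overlap throughout.

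*Scd1*, the main stearoyl-CoA desaturase of adipocytes, was lower at WL1. Its level, scaled for library size (TMM-scaled CPM, used for all values between libraries), was 20657, 22814 and 22553 at Pre, 9498, 7868 and 6498 at WL1, and 10539, 12025 and 18330 at WL2. The 3 phases did not overlap on this scale, with WL2 in the middle. *Scd1* alone took 1.93% to 2.16% of the counted reads at Pre, 0.645% to 0.983% at WL1 and 1.08% to 1.93% at WL2, where the highest library reached the lowest of Pre on this unscaled share. At WL1 it was 2.77-fold lower than at Pre (log2 fold change -1.47, SE 0.21, adjusted p = 0.00382, quasi-likelihood test of edgeR, Benjamini-Hochberg). At WL2 the difference from Pre was -0.69 (SE 0.21, adjusted p = 0.0643, edgeR), and that from WL1 was 0.78 (SE 0.21, adjusted p = 0.0672, edgeR), so neither passed. Both turned on the setting. Under DESeq2 both passed (adjusted p = 0.0114 and 0.00393), as they did without the filter on low counts (0.0327 and 0.0193, edgeR). WL2 replicate 3 was closest to Pre, and without it the edgeR difference of WL2 from Pre was -0.96 (adjusted p = 0.0170), whereas that from WL1 passed without WL2 replicate 1 (0.93, adjusted p = 0.0263).

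*Scd2*, the stearoyl-CoA desaturase best known from brain and developing tissues, had the largest fall of the members at WL1 and at WL2. Its CPM was 646, 729 and 1005 at Pre, 161, 153 and 178 at WL1, and 77.6, 70.8 and 94.8 at WL2. Each phase lay wholly below the one before. At WL1 it was 4.83-fold lower than at Pre (log2 fold change -2.27, SE 0.18, adjusted p = 0.000262, quasi-likelihood test of edgeR, Benjamini-Hochberg). At WL2 it was 9.78-fold lower (-3.29, SE 0.19, adjusted p = 1.25e-05, edgeR), which gave it rank 5 by p-value among all genes tested. From WL1 to WL2 it fell a further 2.02-fold (-1.02, SE 0.17, adjusted p = 0.0177, edgeR). The last call was lost without WL1 replicate 3 (-0.94, adjusted p = 0.0764, edgeR) or without WL2 replicate 2 (-0.93, adjusted p = 0.107, edgeR).

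*Scd1* and *Scd2* are close copies, and the sources used here do not state how the counting treated shared reads. Of the 50-base windows of the longest protein-coding *Scd2* transcript in GENCODE M21, 2.68% occur identically in *Scd1* (3.03% of the *Scd1* windows, in runs of up to 147 bases), so the split of those reads between the genes is uncertain. Reads summed over 3 libraries were 1252938 for *Scd1* and 45952 for *Scd2* at Pre, and 721278 and 4305 at WL2. A shared read therefore weighs more in *Scd2* than in *Scd1*. The part of such reads in the *Scd2* level and in the ratio below was not tested. The mean CPM of *Scd1* was 7954 at WL1 and 13631 at WL2, while that of *Scd2* was 164 and 81.1. Their FPKM ratio within each library, which needs no scaling between libraries, was 35.7, 35.0 and 25.1 at Pre, 65.8, 57.4 and 40.8 at WL1, and 152, 190 and 216 at WL2. The 3 phases did not overlap in this ratio. On the log2 scale it was higher by 0.77 at WL1 than at Pre, by 2.54 at WL2 than at Pre and by 1.78 at WL2 than at WL1, each with an exact two-sided permutation p of 0.1, the smallest that 3 against 3 libraries allow (0.133 after Benjamini-Hochberg adjustment over 12 ratio tests), so the design could not pass 0.05.

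Of the front-end desaturases of the *Fads* cluster, *Fads3*, which acts on the sphingoid base of ceramides, was lower at WL2. Its CPM was 1208, 1170 and 1044 at Pre, 899, 942 and 862 at WL1, and 693, 732 and 711 at WL2. The phases did not overlap. It was 1.60-fold lower at WL2 than at Pre (log2 fold change -0.68, SE 0.10, adjusted p = 0.00266, quasi-likelihood test of edgeR, Benjamini-Hochberg). The steps from Pre to WL1 (-0.34, SE 0.10, adjusted p = 0.0738, edgeR) and from WL1 to WL2 (-0.34, SE 0.10, adjusted p = 0.0921, edgeR) did not pass, while DESeq2 called both (adjusted p = 0.00269 and 0.0116).

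*Fads1* and *Fads2*, the delta-5 and delta-6 desaturases, did not pass in any comparison with edgeR. *Fads1* CPM was 62.5, 84.3 and 62.3 at Pre, 77.3, 79.0 and 84.9 at WL1, and 69.9, 69.2 and 85.0 at WL2, with overlap between all phases. Its log2 fold change was 0.21 at WL1 against Pre (95% interval -0.10 to 0.52) and 0.10 at WL2 against Pre (-0.21 to 0.41). *Fads2* CPM was 27.2, 32.5 and 31.2 at Pre, 24.9, 24.0 and 23.8 at WL1, and 21.8, 24.2 and 29.1 at WL2. The WL1 libraries lay below those of Pre, and WL2 overlapped both. *Fads2* had a log2 fold change of -0.32 at WL1 (95% interval -0.61 to -0.037, adjusted p = 0.159, quasi-likelihood test of edgeR, Benjamini-Hochberg) and -0.27 at WL2 (-0.56 to 0.012, adjusted p = 0.211, edgeR). Within libraries the FPKM ratio of *Fads2* to *Fads1* was 0.636, 0.562 and 0.731 at Pre, 0.470, 0.443 and 0.410 at WL1, and 0.456, 0.511 and 0.50 at WL2. The ratio was lower in each WL1 and WL2 library than in any Pre library (log2 differences -0.54 and -0.39, exact permutation p = 0.1, the smallest possible, and 0.133 adjusted), and WL2 overlapped WL1.

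*Elovl6* was the 1 elongase of the 4 that passed the test. Its CPM was 18.2, 13.9 and 24.4 at Pre, 10.4, 8.27 and 9.50 at WL1, and 5.31, 5.44 and 8.28 at WL2. The libraries of WL1 and of WL2 lay below those of Pre, while WL2 replicate 3 overlapped WL1. *Elovl6* was 2.01-fold lower at WL1 than at Pre (log2 fold change -1.01, SE 0.23, adjusted p = 0.0311, quasi-likelihood test of edgeR, Benjamini-Hochberg) and 2.97-fold lower at WL2 (-1.57, SE 0.24, adjusted p = 0.00272, edgeR). Between WL2 and WL1 the value was -0.57 (SE 0.24, adjusted p = 0.206, edgeR). The call at WL1 was lost without Pre replicate 1 (adjusted p = 0.0724), Pre replicate 3 (0.0773), or WL1 replicate 1 (0.0651), 2 (0.0983) or 3 (0.0968) in edgeR, whereas the call at WL2 held in 9 of 9 fits that left out 1 library.

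*Elovl5* and *Elovl1* did not pass in any comparison. *Elovl5*, which lengthens polyunsaturated fatty acids, had a CPM of 139.8, 163 and 143 at Pre, 149.9, 148 and 124 at WL1, and 151, 134 and 131 at WL2. Its log2 fold change was -0.079 at WL1 against Pre (95% interval -0.34 to 0.18) and -0.10 at WL2 against Pre (-0.36 to 0.16). *Elovl1*, an elongase of saturated very long chains, had a CPM of 69.9, 92.4 and 80.3 at Pre, 76.9, 85.1 and 92.8 at WL1, and 74.5, 62.6 and 62.5 at WL2. Its WL2 libraries lay below those of WL1 without passing the test (log2 fold change -0.35, 95% interval -0.64 to -0.060, adjusted p = 0.155, quasi-likelihood test of edgeR, Benjamini-Hochberg). The FPKM ratio of *Elovl6* to *Elovl5* was 0.0712, 0.0468 and 0.0938 at Pre, 0.0381, 0.0306 and 0.0419 at WL1, and 0.0193, 0.0223 and 0.0345 at WL2. Each WL1 and WL2 library was below each Pre library (log2 differences -0.89 and -1.46, exact permutation p = 0.1, the smallest possible, and 0.133 adjusted).

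*Elovl3*, an elongase of brown fat and sebaceous gland that is induced by cold, had few reads. The counts were 7, 8 and 17 at Pre, 18, 2 and 4 at WL1, and 4, 1 and 1 at WL2. The libraries with 17 and 18 reads, Pre replicate 3 and WL1 replicate 1, were those with the highest liver marker sums, and *Elovl2*, a liver elongase, had 10 and 15 reads there and at most 1 in any other library. The part of this in the *Elovl3* counts was not tested. For WL2 against Pre, edgeR gave -2.23 on the log2 scale (95% interval -4.32 to -0.14, adjusted p = 0.166, Benjamini-Hochberg), and the interval at WL1 against Pre ran from -2.16 to 1.43, so changes of several fold in *Elovl3* were not detectable at this depth. Without those 2 libraries, an alternative chosen after seeing the data, the number of members called was 2, 3 and 1 in the 3 comparisons, *Elovl6* at WL1 being the call lost (-0.85, adjusted p = 0.127, edgeR). The sum of 10 brown and beige adipocyte markers was 48.4 to 56.4 CPM at Pre, 29.4 to 38.7 at WL1 and 48.0 to 50.8 at WL2. Its largest parts were *Ebf2* (mean 18.8 CPM at Pre and 26.8 at WL2) and *Prdm16* (12.8 and 13.9). At WL2 against Pre, 3 of the 8 tested were called lower, against 6.66% of all genes. These were *Cox8b* (log2 fold change -1.91), *Cox7a1* (-1.71) and *Dio2* (-2.49). *Cox8b* alone was called lower at WL1 (-2.03), against 4.69% of all genes. Of 6 sebaceous gland and skin markers, *Krt5* had no read in these libraries and *Awat1* a single one. The sum of the list was 27.9 to 34.3 CPM at Pre and 7.65 to 12.6 at WL1 and WL2, carried by *Krt79*. The part of both lists in the levels of *Elovl3* and *Scd1* was not tested.

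**Figure D3:**
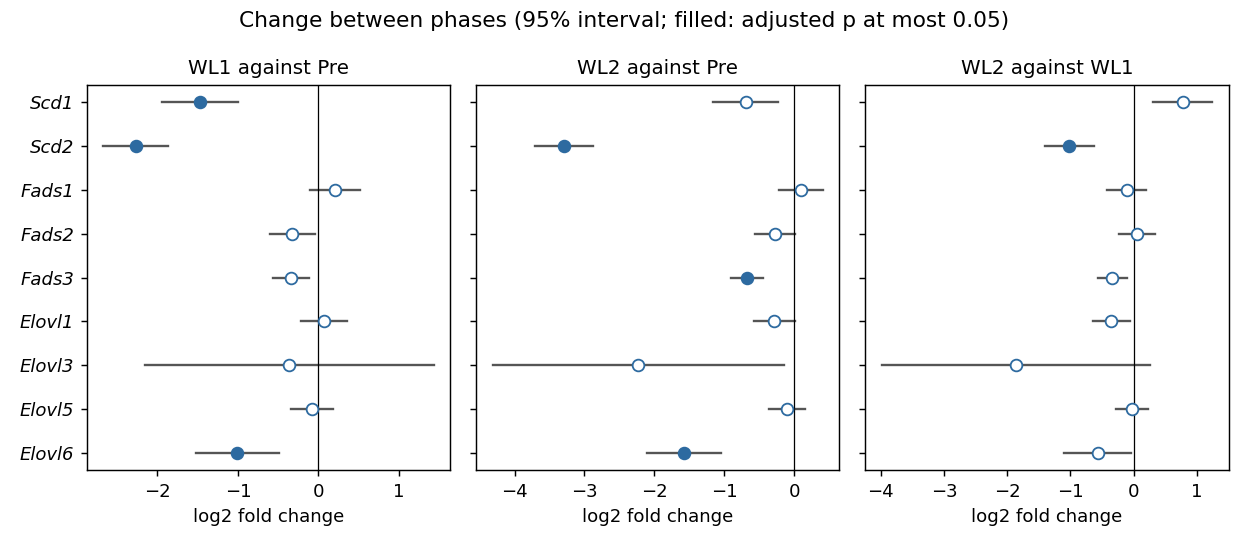
Log2 fold change of each member in the 3 comparisons, with 95% intervals. Filled points passed the adjusted threshold of 0.05 in edgeR. *Scd2* and *Elovl6* are filled in both comparisons with Pre, and *Elovl3* has the widest intervals.

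*Scd1* and *Elovl6* act on the products of fatty acid synthase, *Scd1* by desaturating and *Elovl6* by lengthening them. The FPKM ratio of *Scd1* to *Elovl6* was 1495, 2151 and 1214 at Pre, 1198, 1251 and 899 at WL1, and 2609, 2907 and 2909.8 at WL2. WL2 lay above both other phases, and Pre and WL1 overlapped. On the log2 scale the ratio was higher at WL2 by 0.83 than at Pre and by 1.34 than at WL1 (exact permutation p = 0.1 for each, the smallest possible, and 0.133 adjusted), and differed by -0.51 between WL1 and Pre (exact permutation p = 0.2).

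**Figure D4:**
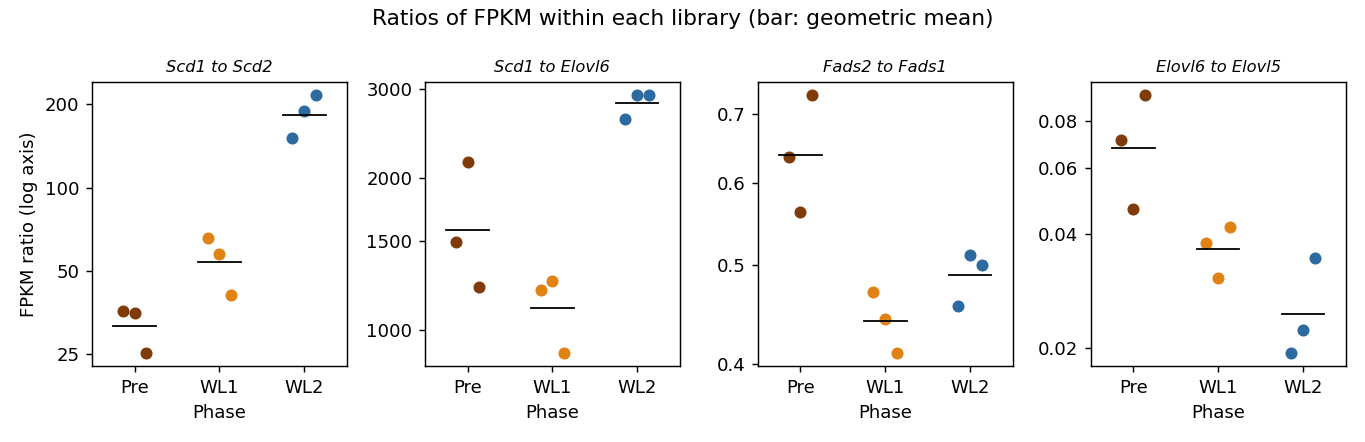
FPKM ratios of member pairs within each library (log axes), with 3 points per phase and a bar at the geometric mean. *Scd1* to *Scd2* is higher at each later phase, and *Fads2* to *Fads1* is lower at WL1 and WL2 than at Pre.

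The genes whose pattern was most like that of a member were found by the root mean square (RMS) difference of centred log2 CPM over the 9 libraries, among 14611 genes. For *Scd1* these were *Slc2a13* (RMS 0.136) and *Bche* (0.169), against an RMS of 0.651 for *Scd1* itself. For *Scd2* they were *1700047G03Rik* (0.204) and *Serpina3m* (0.227), against 1.38 for *Scd2* itself. *Fads3* was most like *Srpx2* (0.0616) and *Cyp4f16* (0.0696), and *Elovl6* was most like *Matn2* (0.135) and *Adamts5* (0.166). This is a description of 9 libraries, with no test.

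The other genes of the pathway were followed through lists by role, whose members were called with the same edgeR test. Over all genes, 4.69% were called lower and 2.60% higher at WL1 against Pre, and 6.66% and 3.35% at WL2 against Pre. At WL2 against WL1 these shares were 2.37% and 1.31%. Of the other desaturases and elongases (7 tested), *Degs1*, the dihydroceramide desaturase, was lower at WL1 (log2 fold change -0.65, adjusted p = 0.0113, edgeR, Benjamini-Hochberg) and at WL2 (-1.06, adjusted p = 0.000451, edgeR), and *Fads6* was higher at WL1 (1.02, adjusted p = 0.0435, edgeR). The *Scd1* neighbours *Scd3* and *Scd4* averaged under 1 CPM in each phase. Of 12 genes that complete the elongation cycle or feed electrons to the desaturases, 5 were lower at WL1 and 5 at WL2 against Pre, and, by the larger of the 2 comparisons, the called genes with the largest changes were *Cyb5b* (-0.98 and -1.43), a cytochrome b5 of the outer mitochondrial membrane, *Hacd2* (-0.86 and -0.71), a dehydratase of the elongation cycle, and *Hsd17b12* (-0.51 and -0.74), its ketoacyl reductase. From WL1 to WL2, *Cyb5b* fell further (-0.44, adjusted p = 0.0449, edgeR) and *Cyb5a*, the cytochrome b5 that serves the desaturases, rose (0.53, adjusted p = 0.0334, edgeR). Against Pre, *Cyb5a* was lower at WL1 (-0.65, adjusted p = 0.00922, edgeR) and did not pass at WL2 (-0.12, adjusted p = 0.525, edgeR).

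De novo synthesis supplies the palmitate that *Elovl6* and *Scd1* use. Of its 9 genes, 7 were called lower at WL1 and 6 at WL2, against 4.69% and 6.66% of all genes. *Fasn*, fatty acid synthase, had the largest fall of the list (-2.36 and -3.04, adjusted p = 0.00135 and 0.000156, edgeR, Benjamini-Hochberg). *Acss2*, which makes acetyl-CoA from acetate, fell by 1.86 on the log2 scale in both comparisons. *Thrsp*, a lipogenic protein, was lower at WL1 (-1.65) and WL2 (-0.70) and, as 1 of 2 genes of the list, rose from WL1 to WL2 (0.95, adjusted p = 0.0182, edgeR). The other was *Acaca*, acetyl-CoA carboxylase of the cytosol (0.50, adjusted p = 0.0456, edgeR). Against Pre, *Acaca* was lower at WL1 (-0.83, adjusted p = 0.00343, edgeR) and did not pass at WL2 (-0.33, adjusted p = 0.106, edgeR). *Acacb*, the mitochondrial carboxylase that controls fatty acid oxidation, was higher at WL2 than at Pre (0.81, adjusted p = 0.00737, edgeR).

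Of 15 regulators of lipogenic transcription, 4 were lower at WL1, and 3 lower and 1 higher at WL2 against Pre. The shares of all genes were 4.69% lower at WL1, and 6.66% lower and 3.35% higher at WL2. *Insig1*, which retains the SREBP precursor in the endoplasmic reticulum and is itself an SREBP target, was lower at WL1 and WL2 (log2 fold changes -1.09 and -2.01, adjusted p = 0.0121 and 0.000254, edgeR, Benjamini-Hochberg). *Srebf1*, which encodes SREBP-1, was lower at both (-0.92 and -0.88, adjusted p = 0.00171 and 0.00111, edgeR), and *Mlxipl*, which encodes ChREBP, was lower at WL1 (-0.61, adjusted p = 0.0492, edgeR). *Insig2* was the gene higher at WL2 (0.37, adjusted p = 0.0444, edgeR). From WL1 to WL2, 2 of the 15 rose (*Insig2* and *Pparg*) and *Insig1* fell.

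Of the genes that use the products, 13 acyl-CoA synthetases and lysophospholipid acyltransferases were tested, and 0 were called at WL1 against Pre. At WL2 1 of the 13, *Acsl1*, was lower than at Pre (-0.62, adjusted p = 0.0191, edgeR, Benjamini-Hochberg). This is near the share of all genes called lower there, 6.66%. Of 8 genes of peroxisomal chain shortening, 2 were called lower at WL1, among them *Acaa1a* (-0.50), against 4.69% of all genes. At WL2 1 was called lower, *Abcd3* (-0.49), against 6.66% of all genes. Of 13 genes of eicosanoid synthesis, which starts from arachidonate, 2 were called lower and 1 higher in each comparison with Pre. Over all genes the shares were 4.69% lower and 2.60% higher at WL1, and 6.66% and 3.35% at WL2. *Ptges* and *Ltc4s* were lower in both comparisons (*Ptges* -0.88 and -1.23). *Hpgds*, a prostaglandin D synthase of immune cells, was higher at WL1 (2.53, adjusted p = 0.0131, edgeR), the phase with the highest macrophage marker sum, and the part of these cells in it was not tested. *Ptgds*, with a mean of 0.849 CPM at WL2 and 0.121 at Pre, was higher at WL2 (2.73, adjusted p = 0.0431, edgeR).

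**Figure D5:**
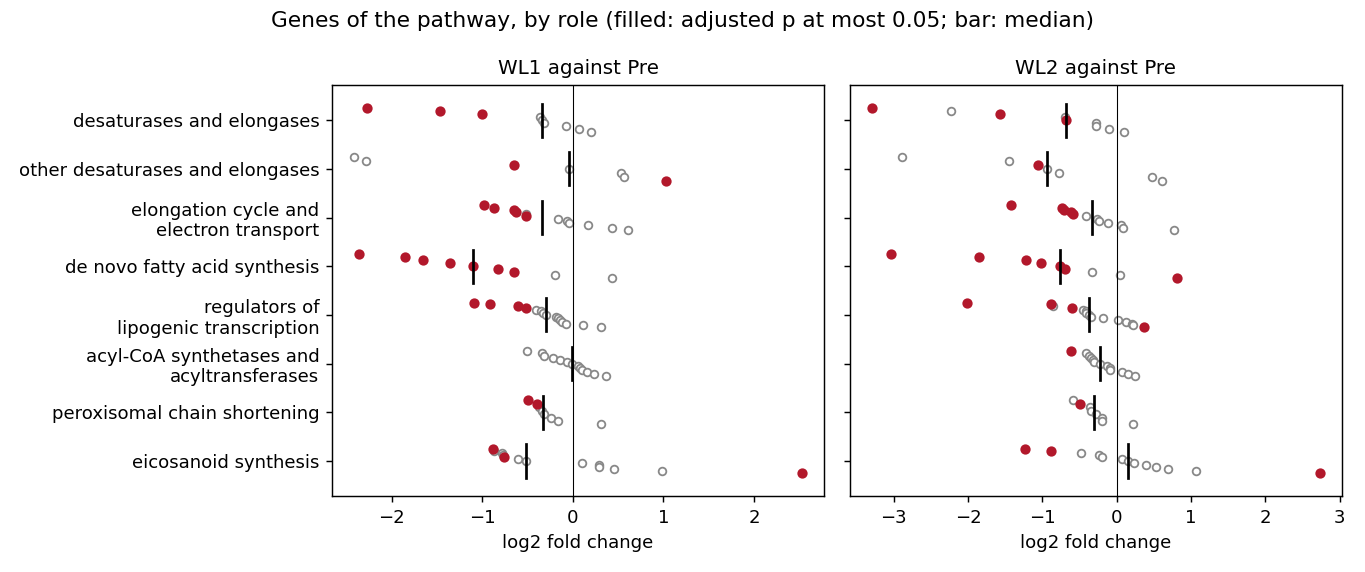
Log2 fold change of the members and of the genes of each list at WL1 and WL2 against Pre. Each point is a gene, filled where it passed the adjusted threshold of 0.05 in edgeR, and bars mark medians. De novo synthesis holds 7 filled points below 0 at WL1.

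The adipocyte marker sum did not overlap between Pre and WL1. Of its 10 genes, 4 were called lower there (*Plin1*, *Cidec*, *Retn* and *Lep*), against 4.69% of all genes. The part of this in the falls of *Scd1*, *Scd2* and *Elovl6* at WL1 was not tested. At WL2 the sum overlapped that of Pre, but its genes went different ways. By edgeR *Cidec* (log2 fold change -0.67) and *Lep* (-2.03) were called lower and *Cfd* (1.61) higher, against 6.66% and 3.35% of all genes. The part of this in the falls of *Scd2*, *Fads3* and *Elovl6* at WL2 was not tested either.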

How the data were processed

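Epididymal adipose tissue of 9 samples was profiled by RNA sequencing, with groups and replicate numbers taken from the labels. The authors deposited raw counts per gene (whole numbers, not normalized) and FPKM for the same libraries. The submitters' processing notes name CASAVA, HISAT, HISAT2, TopHat2, GRCm38 and mm10 without versions or roles, and no source used here states the counting program or strand setting. Compared with GENCODE M21 (GRCm38), 1472 of 52073 common genes and 0 of the 9 members had identical coordinates, so gene coordinates are given without a build. The library total implied by FPKM was 0.995 to 1.01 times the sum of counts at Pre. It was 1.07 to 1.11 times that sum at WL1 and 1.11 to 1.12 times at WL2. FPKM values of different phases thus carry a scaling that the raw counts do not. Ratios within a library are free of it. The authors' gene symbols were used, of which 882 occur more than once.

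A filter of 0.5 CPM in 1 library or more, here on library totals without TMM, kept 18510 genes. These were fitted with edgeR 4.0.16 under R 4.3.3 (TMM, glmQLFit, glmQLFTest, 1 model over 9 libraries, no covariate), with Benjamini-Hochberg adjustment at 0.05. All 9 members passed the filter. SE is the absolute log2 fold change divided by the root of the F statistic, and 95% intervals use the total degrees of freedom. Ratios of FPKM were compared by two-sided exact permutation tests of log2 values. The test was checked on simulated counts with planted changes balanced up and down, which does not test the choice of scaling between libraries.

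Named are all members; per list, up to 3 genes with the largest change among those called against Pre and any called the other way; and the 2 genes most like each called member. *Acaca*, *Cyb5a*, *Pparg*, *Ltc4s*, *Scd3*, *Scd4*, *Elovl2* and the named markers were added for their values. A gene that this rule names is not reported here. The members and lists were chosen with earlier results of these data known. Alternatives were DESeq2 1.42.0, RLE size factors, library totals only, no filter, a filter on 3 libraries, limma 3.58.1 on log2(FPKM + 1) and log2(FPKM + 0.1), the replicate number as a block, the 2 compared phases alone, and leaving out each library. Replicate pairs differed by more than sampling noise, and none was identical. Depths of 16434450 to 22729072 counts per library leave genes near 0.5 CPM with wide counting error.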

Additional observations from a re-analysis of the deposited data

How the results depend on the processing

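The direction and the call of *Scd1* at WL1, of *Scd2* at WL1 and WL2 and of *Fads3* and *Elovl6* at WL2, each against Pre, held under all alternatives run. Replicate numbers did not pair the libraries: of 9 same-number pairs the correlation of deviations ran from -0.277 to 0.107, and 0 libraries correlated best with their own number. With the replicate block, 1350 calls at WL1 against Pre became 844, and 681 at WL2 against WL1 became 330, and the members called stayed at 3, 3 and 1. In these comparisons DESeq2 called 2344 and 1935 genes, and the latter was 1668 without a filter and 1051 with the 2 phases alone. Without Pre replicate 3 and WL1 replicate 1 (chosen after seeing the data) these 2 counts were 362 and 129. Leaving out 1 library gave 507 to 1490 genes at WL1 against Pre, 746 to 1680 at WL2 against Pre (1853 with all) and 37 to 1347 at WL2 against WL1, and 2 to 3, 3 to 4 and 0 to 2 members. The 0 came without WL1 replicate 3 or WL2 replicate 2, each with 3 members at an unadjusted p under 0.05. At WL2 against WL1, 2 members were called without a filter and 3 by DESeq2. *Elovl6* at WL1 also missed the threshold in limma on log2(FPKM + 0.1) (-0.94, adjusted p = 0.0547).

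Signs turned only for member values that had not passed the test. Library totals without TMM moved the median of all genes by 0.098, 0.15 and 0.051, and gave *Elovl5* 0.021 and 0.049 against Pre and 0.028 at WL2 against WL1. For *Elovl5* at WL2 against WL1 the value was also 0.0030 with the filter on 3 libraries, 3.1e-05 and 0.00012 in limma with pseudocounts of 1 and 0.1, 0.0035 to 0.028 without WL1 replicate 1, WL1 replicate 2, WL2 replicate 2 or WL2 replicate 3 (range over all 9 such fits -0.085 to 0.028), and 0.028 without the 2 libraries above. At WL1 against Pre, *Elovl1* was -0.024 without Pre replicate 1 and -0.0065 without WL1 replicate 3 (range -0.024 to 0.18 over the 9 fits), and *Elovl3* 0.13 without WL1 replicate 2 (range -1.79 to 0.13). Without WL2 replicate 3, *Fads1* at WL2 against Pre was -0.0020 (range to 0.26) and *Fads2* at WL2 against WL1 -0.072 (range to 0.14). The cause of these changes was not tested. *Elovl3* could not be fitted with the filter on 3 libraries.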
